A study of Mus musculus with 8 samples.

Results

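The family of miR-204 and miR-211 consists of 2 miRNA genes in the mouse, and 4 of the 1881 mouse miRNAs on the array carry their names: miR-204-5p, miR-204-3p, miR-211-5p and miR-211-3p. These 4 members were chosen by name and not by their values, though earlier results of these data were known at the time. They were measured in kidney RNA of db/db mice, a strain that grows obese and diabetic because the leptin receptor does not signal, and of control mice. Each group had 4 samples of males aged 28 weeks on the C57BLKS/J Iar background, with 1 single-colour Agilent array for each sample. The db/db mice carried Leprdb on both chromosomes. The strain and source labels call the controls m+/m+ and m/m, while the array titles call them dbm, so it is not settled here whether the controls carried a db allele. The leptin receptor mutation is present in every tissue of these mice and is not limited to the kidney. The labels do not say that the samples of a group came from separate animals, so the spread behind each p-value may be technical.

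miRNAs are cut from a hairpin precursor that yields a 5′ arm (5p) and a 3′ arm (3p), of which one is usually kept and the other mostly lost. The bases near the 5′ end of the kept arm, called the seed, do most of the target recognition, so miRNAs with 1 seed share most predicted target sites. miR-204 is made from an intron of Trpm3 and miR-211 from an intron of Trpm1, both genes of melastatin-type cation channels. miR-204 is known as a miRNA of epithelia, including retinal pigment epithelium and kidney tubule, and in pancreatic beta cells it represses the insulin transcription factor MafA. miR-211 is best known from melanocytes, where the transcription factor MITF drives it with its host gene.

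The mature sequences are given because the family is defined by them, and because 2 of the members are nearly the same molecule. They were taken from RefSeq on GRCm38.p6, which holds all 4 members, and the capitals mark the seed, bases 2 to 8 from the 5′ end:
mmu-miR-204-5p: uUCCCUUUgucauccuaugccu
mmu-miR-211-5p: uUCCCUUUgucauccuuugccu
mmu-miR-204-3p: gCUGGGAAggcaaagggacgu
mmu-miR-211-3p: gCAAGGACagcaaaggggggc

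miR-204-5p and miR-211-5p had the same seed and were identical at 21 of 22 bases. Their 1 difference was A17U, with the base of miR-204-5p first and positions counted from 1 at the 5′ end. The 3p arms had different seeds and matched at 14 of 21 positions, aligned without gaps. The only other miRNA on the array with the seed of the 5p arms was miR-7670-3p, and the only one with the seed of miR-204-3p was miR-7684-5p. miR-6385 shared bases 2 to 7, but not base 8, with miR-211-3p. None of these 3 miRNAs was detected on any of the 8 arrays. This search covered the 1608 array miRNAs that had a RefSeq mature sequence.

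Both hairpins lay inside their host gene on the same strand of GRCm38.p6. The 68-base hairpin of Mir204 was annotated at chr19:22750605-22750672, on the plus strand, inside Trpm3 at chr19:22137797-22995410. Within it, miR-204-5p covered chr19:22750610-22750631 and miR-204-3p covered chr19:22750649-22750669. The 106-base hairpin of Mir211 was annotated at chr7:64205806-64205911, on the plus strand, inside Trpm1 at chr7:64153835-64269772. Within it, miR-211-5p covered chr7:64205831-64205852 and miR-211-3p covered chr7:64205868-64205888. Mir204 was the only miRNA gene annotated inside Trpm3, whereas Trpm1 also held Mir6416.

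Each member was read by 2 to 4 DNA probes of different length, each complementary to the miRNA from its 3′ end. The 22-base probe of miR-211-5p covers the whole miRNA, and the others cover a part. The probes bear on the results because they decide how well near-identical members can be told apart. The longest probe that has a counterpart of equal length is shown for the 5p arms, with the base that pairs with position 17 in capitals, and the longer of the 2 probes is shown for each 3p arm:
miR-204-5p, 20-base probe: aggcaTaggatgacaaaggg
miR-211-5p, 20-base probe: aggcaAaggatgacaaaggg
miR-204-3p, 15-base probe: acgtccctttgcctt
miR-211-3p, 13-base probe: gcccccctttgct

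The 5p probes of 20 bases differed only at that 1 base. Among the probes of other miRNAs on the array, those sharing 15 or more bases in a row with a member were 2 probes of miR-211-5p, with 22 and 21 bases, which share runs of 16 and 15 bases with miR-204-5p. The probes of miR-211-3p cover only its last 12 and 13 bases, so a cutoff of 15 bases is longer than these probes. Below that cutoff, probes of miR-6370 shared runs of 12 and 11 bases with miR-211-3p. The part of miR-6370 in the signal of the miR-211-3p probes was not tested.

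Signals are given on a linear scale in arbitrary units, after scaling that made the 75th percentile equal over arrays, taken from the 269 miRNAs that every one of the 8 arrays detected. Changes are log2 differences of db/db minus control. Each array detected 289 to 358 miRNAs in db/db samples and 305 to 352 in control samples, and 390 were detected on at least 1 array. No miRNA spot was saturated. Correlations of log2 values across miRNAs, which are not independent replicates, were 0.996 to 0.997 within db/db samples, 0.989 to 0.997 within control samples and 0.964 to 0.979 between the groups. All arrays lay on 1 slide with the db/db samples in row 2 and the controls in row 1, and the effects of slide row and of genotype cannot be told apart. As a check of the tissue label, 15 of 16 miRNAs of tubular epithelium were detected, and their summed signal was 32937 to 34261 in db/db samples and 29387 to 31241 in control samples. Signal per probe depends on the probe, so the levels of different members are not ranked against each other.

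Within the family, miR-204-5p and miR-211-3p were higher in db/db kidneys, miR-211-5p lay near background with the same mean in both groups, and miR-204-3p was not detected. Of the 4 members, 2 met the filter for testing, which asked for detection on all 4 arrays of at least 1 group. miR-204-5p met it in both groups. miR-211-3p met it only through the db/db arrays, where it is high, so its inclusion depended on the change that was then tested, and its test is not independent of the filter. Across all 316 tested miRNAs, 41.8% were called at an adjusted p under 0.05 (limma with Benjamini-Hochberg adjustment), 24.4% of them being called higher and 17.4% called lower as shares of the tested miRNAs. No count over the members is read against that background, and each member is described by its own values.

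miR-204-5p, the arm of miR-204 that cells usually keep, had scaled signals of 319, 325, 313 and 335 in the 4 db/db samples and of 155, 160, 151 and 160 in the 4 control samples. Every db/db sample lay above every control sample, as for 41.5% of the tested miRNAs when both directions are counted and for 24.7% in this direction. The lowest db/db value exceeded the highest control value by 0.97 on the log2 scale. The mean signal was 323 ± 9.52 in db/db kidneys and 156 ± 4.30 in control kidneys (SD, n = 4 each).

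The log2 change of 1.05 ± 0.04 (SE) had a 95% confidence interval of 0.95 to 1.14, which is a fold of 1.94 to 2.20 around 2.07. limma's adjusted p of 1.94e-06 was the smallest of the 316 tested miRNAs. The exact permutation test over the 70 assignments of samples to groups gave p = 0.0286 (2-sided), the smallest value this design allows. The size of the change was less extreme than its p, since 16 miRNAs called higher had larger changes. In all, 19 miRNAs called higher changed at least 2-fold, and only 4 of those, miR-204-5p among them, were detected on all 8 arrays.

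The small p went with a small spread. The pooled SD of miR-204-5p within groups was 0.04 on the log2 scale, against a median of 0.11 over the tested miRNAs, and 29 of the 316 had a smaller one. Samples of each group therefore lay close together, and leaving out any single sample moved the change only between 0.99 and 1.06. In bulk RNA, more cells of a type and more RNA per cell cannot be told apart.

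**Figure D1:**
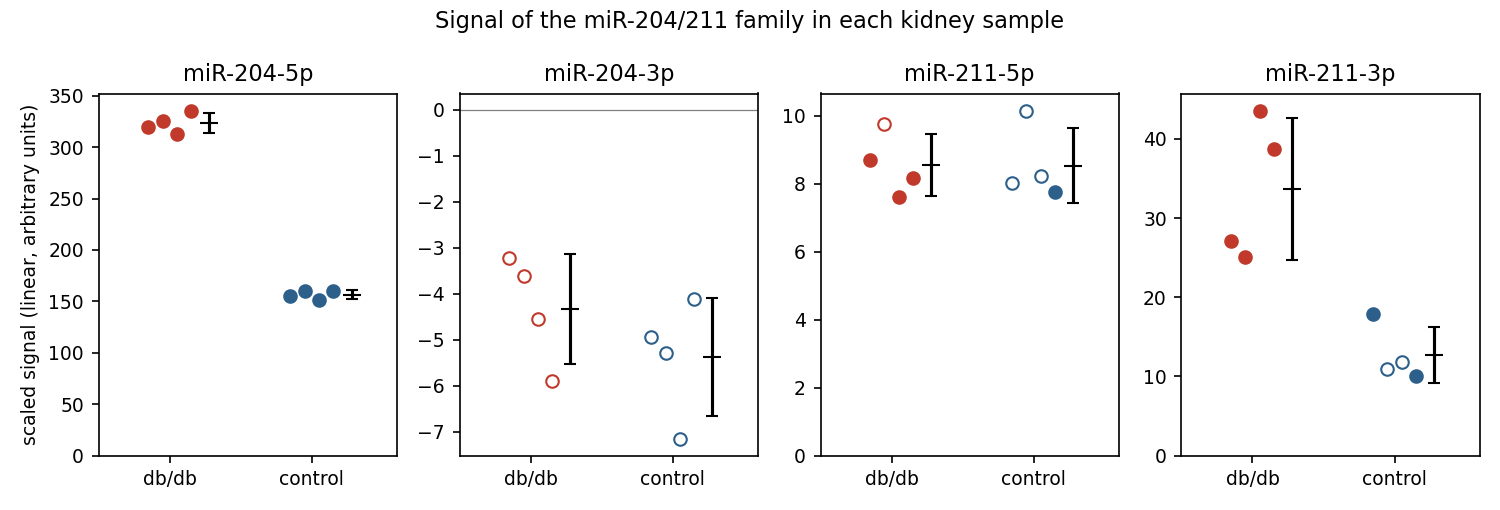
Scaled linear signal (arbitrary units) of the 4 members in each sample, with 1 point per array and the mean ± SD beside it (n = 4 each). Filled points are arrays on which the miRNA was called detected and open points are arrays on which it was not. The groups are apart for miR-204-5p (313 to 335 in db/db, 151 to 160 in control) and miR-211-3p (25.1 to 43.5 in db/db, 10.1 to 17.8 in control), and overlap for miR-211-5p and miR-204-3p, whose signals are all below 0. Each panel has its own axis.

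Both probes of miR-204-5p showed the difference. The 20-base probe averaged 449 ± 13.6 in db/db samples and 214 ± 6.90 in control samples (SD, n = 4 each), a 2.10-fold difference. The 19-base probe, which lacks only the last base of the longer one, averaged 197 ± 6.17 in db/db samples and 98.4 ± 4.56 in control samples, a 2.00-fold difference. Each probe had 15 spots on each array, and all 60 spots of each probe in each group were well above background. The coefficient of variation over the spots of a probe on 1 array was 2.02% to 8.69%, which is technical spread within an array and not the spread between samples.

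miR-211-3p, the arm of miR-211 opposite its usual guide, was much dimmer. Its scaled signals were 27.1, 25.1, 43.5 and 38.8 in the db/db samples and 17.8, 10.9, 11.8 and 10.1 in the control samples. It was detected on 4 of 4 db/db arrays and on 2 of 4 control arrays, replicates 1 and 4. The groups did not overlap, with a gap of 0.49 on the log2 scale, but db/db replicates 3 and 4 lay clearly above replicates 1 and 2, and control replicate 1 above the other controls.

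The mean signal of miR-211-3p was 33.6 ± 8.92 in db/db kidneys and 12.7 ± 3.51 in control kidneys (SD, n = 4 each). The log2 change of 1.41 ± 0.23 (SE) had a 95% confidence interval of 0.87 to 1.94, a fold of 1.82 to 3.85 around 2.65. limma gave an adjusted p of 0.00206, the 49th smallest of 316, and the exact permutation test gave p = 0.0286 (2-sided). Both followed a filter that it met only through db/db. With no filter on detection, over all 1881 miRNAs, its adjusted p was 0.0387 (limma). Its pooled SD of 0.38 was larger than that of 297 of the tested miRNAs. The interval was thus much wider than that of miR-204-5p and contained it.

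The 2 probes of miR-211-3p gave similar values. The 12-base probe averaged 31.8 ± 8.48 in db/db samples and 12.7 ± 4.04 in control samples, a 2.50-fold difference, with 47 of 60 spots well above background in db/db and 5 of 60 in control. The 13-base probe averaged 35.5 ± 9.41 in db/db samples and 12.7 ± 3.13 in control samples, a 2.80-fold difference, with 51 of 60 and 5 of 60 spots well above background in db/db and in control. Most control spots were therefore not well above background, and the size of the change rests on how background and undetected arrays are treated. It was 2.60 (adjusted p = 0.00964, limma) on the scanner's gene total signal and 4.35 in the authors' value table, where it no longer passed (adjusted p = 0.0509, limma). After normexp background correction the change was 0.25 (adjusted p = 0.0193, limma). That setting adds an offset of 50 to every signal, which by itself makes log2 changes of dim miRNAs smaller.

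miR-211-5p, the arm that carries the seed shared with miR-204-5p, had scaled signals of 8.69, 9.75, 7.61 and 8.16 in the db/db samples and of 8.01, 10.2, 8.24 and 7.75 in the control samples. The groups overlapped. The scanner software called it detected on 3 of 4 db/db arrays, all but replicate 2, and on 1 of 4 control arrays, replicate 4. Those detection calls did not follow the averaged signal, since the undetected db/db array had the highest value of its group and the detected control array the lowest of its group.

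The log2 mean of miR-211-5p was 3.09 ± 0.15 in db/db and 3.09 ± 0.18 in control kidneys (SD, n = 4 each), and it did not meet the filter for the test. In a fit of all 390 miRNAs detected on at least 1 array, its change was 0.005 ± 0.11 (SE), with an adjusted p of 0.98 (limma). The 95% confidence interval of that fit was -0.25 to 0.26, and it covers the signal, which lay close to background, not the amount of RNA.

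The 4 probes of miR-211-5p read signal close to background, with 0 or 1 spot of each probe well above background in a group, of 28 to 32 spots. The db/db over control ratio of mean signals was 1.03 for the 19-base probe, 0.749 for the 20-base probe, 1.01 for the 21-base probe and 1.17 for the 22-base probe, and ratios of such signals cannot show whether the probes differ. Only the 22-base probe had groups without overlap, with 13.8, 13.8, 12.1 and 13.4 in db/db samples and 11.5, 11.7, 10.8 and 11.3 in control samples. None of its 28 spots in either group was well above background. This probe shares a run of 16 bases with miR-204-5p, which was also higher in db/db kidneys. The part of miR-204-5p in the signal of this probe was not tested.

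**Figure D2:**
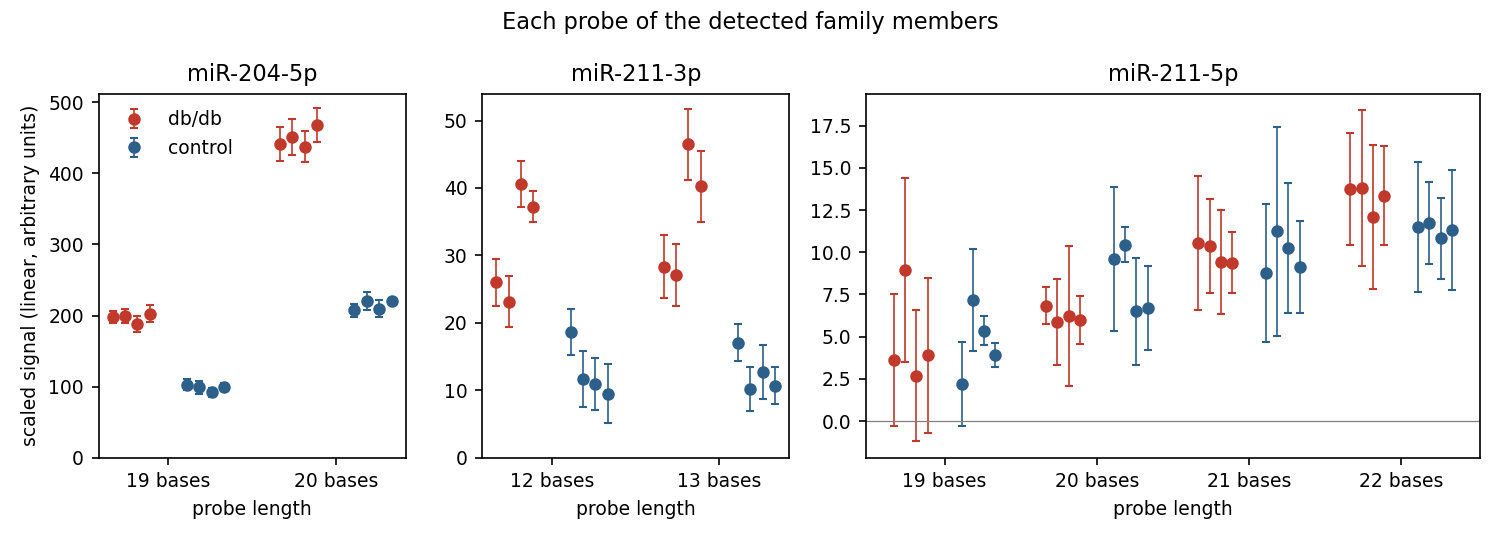
Scaled linear signal (arbitrary units) of each probe of miR-204-5p, miR-211-3p and miR-211-5p, by probe length, with 1 point per array and the SD over the spots of that probe as the bar. db/db samples are left of control samples. Both probes of miR-204-5p and both of miR-211-3p separate the groups, while the 4 probes of miR-211-5p, drawn on a much smaller axis, have ratios of 0.749 to 1.17.

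miR-204-3p, the arm opposite miR-204-5p, was detected on none of the 8 arrays. Its scaled signals were -3.23, -3.62, -4.55 and -5.91 in the db/db samples and -4.94, -5.29, -7.16 and -4.10 in the control samples, all below 0, which the spatially detrended signal allows. No spot of its 14-base or 15-base probe was well above background, of 60 for each probe in each group. A change could therefore not be measured for miR-204-3p, and the difference between the 2 arms of miR-204 could not be tested.

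The change of miR-204-5p was set beside that of miR-211-3p within arrays, where the scaling factor cancels, a comparison chosen after the values had been seen. The log2 signal of miR-204-5p minus that of miR-211-3p changed by -0.36 in db/db relative to control samples, with overlap between the groups (exact permutation test, 2-sided, p = 0.229, and 0.229 after adjustment over the 3 pairs computed). A difference between the changes of these members was therefore not shown, which does not show that they changed alike. The pairs with miR-211-5p are not given, because nearly all its spots were not well above background. The pair given has a like limit in control samples. There miR-211-3p was detected on 2 of 4 arrays, with 5 of 60 spots of each probe well above background.

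**Figure D3:**
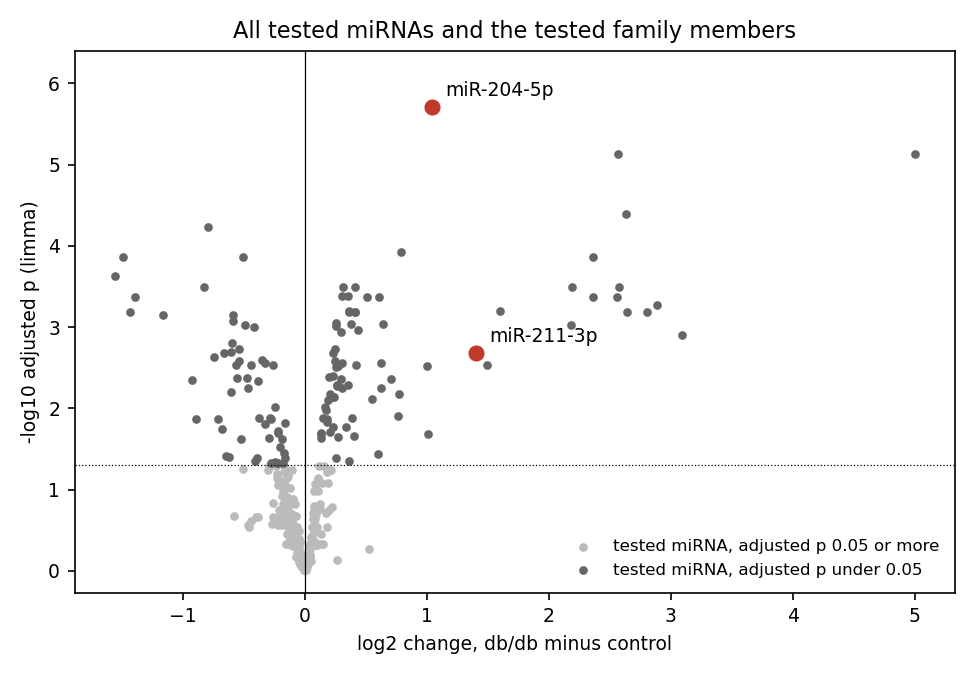
Log2 change (db/db minus control, x axis) and −log10 of limma's adjusted p (y axis) of the 316 tested miRNAs, with the tested family members in red and the dotted line at an adjusted p of 0.05. miR-204-5p (1.05) is highest on the y axis, and miR-211-3p (1.41) lies among called miRNAs of similar or larger change.

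The tested miRNAs whose profile over the 8 arrays was nearest to that of miR-204-5p were found by the root mean square difference of log2 values, each miRNA centred on its own mean. The nearest was miR-874-3p, made from an intron of the distal tubule gene Klhl3, at a difference of 0.15. Its log2 mean was 5.91 ± 0.10 in db/db and 5.12 ± 0.08 in control kidneys (SD, n = 4 each), a change of 0.79 ± 0.07 (SE). miR-129-1-3p followed at 0.24, with a change of 0.61 ± 0.07 (SE). miR-34a-5p, which p53 is known to induce, also lay at 0.24 and had a change of 0.64 ± 0.09 (SE). All 3 were detected on all 8 arrays and had smaller changes than miR-204-5p. The measure contains the difference between the groups, so these changes are a description with no test.

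The members' changes were set beside lists of other miRNAs from the same tissue, which were drawn up with earlier results of these data known. Of 15 tested miRNAs of tubular epithelium, 9 were called higher and none lower (limma, with 11 higher and 0 lower at an unadjusted p under 0.05). Over all tested miRNAs, 24.4% were called higher and 17.4% lower. Changes on the list ran from -0.01 to 0.42 with a median of 0.17, beside a median of -0.02 over all tested miRNAs. miR-30d-5p (0.30 ± 0.03 SE) and miR-200c-3p (0.42 ± 0.08 SE), an epithelial miRNA that represses ZEB factors, were among those called higher, with miR-30c-5p (0.26) and miR-10b-5p (0.27). The change of miR-204-5p was thus 1.05 where the largest of the list was 0.42. The count for this list depended on the scaling. It was 15 with scaling by labelling spike-ins, 5 with quantile normalization and 0 with the 75th percentile over all miRNAs.

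Of 11 tested miRNAs made from introns of other genes, 3 were called higher and none lower (limma, with 4 higher and 0 lower at an unadjusted p under 0.05). Their median change was 0.07. That count of higher calls is near the share over all tested miRNAs, of which 24.4% were called higher and 17.4% lower. The 3 called higher were miR-874-3p, miR-335-5p from Mest (0.62) and miR-26b-5p from Ctdsp1 (0.13). miR-190a-5p had a change of 0.20 that did not pass (adjusted p = 0.0567, limma). With the reported processing, miR-204-5p and miR-211-3p had larger changes than each tested miRNA on this list. After normexp with its offset of 50, that of miR-211-3p (0.25) was not larger than that of miR-874-3p (0.26). The count of higher calls on the list was 1 to 7 across scalings.

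Of 10 tested miRNAs linked to kidney fibrosis, 1 was called higher and 4 lower, with a median change of -0.01. The 1 higher was miR-34a-5p. Among the lower, miR-199a-3p changed by -0.42, miR-214-3p by -0.44 and miR-132-3p by -0.75. The count of higher calls on this list was 0 to 5 across scalings, and that of lower calls fell to 1 with the 75th percentile over all miRNAs.

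**Figure D4:**
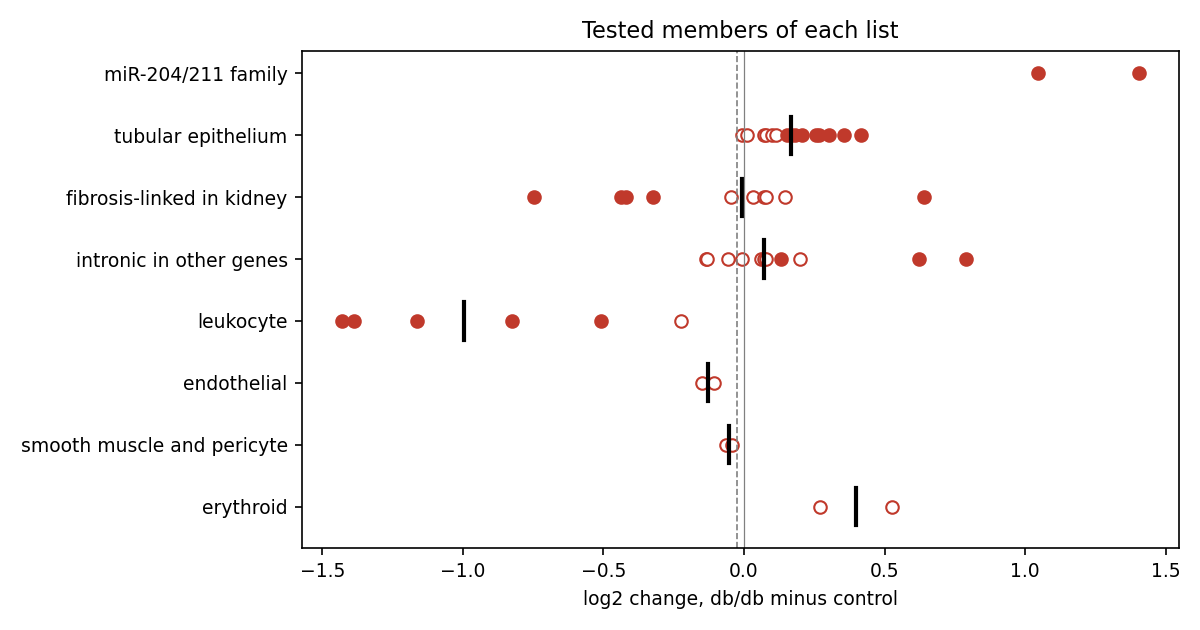
Log2 change (db/db minus control) of each tested miRNA of the family and of 7 lists of other miRNAs (tubular epithelium, fibrosis-linked, intronic in other genes, leukocyte, endothelial, smooth muscle and pericyte, erythroid), with filled points for an adjusted p under 0.05 (limma) and a vertical bar at each list's median. The dashed line is the median of all tested miRNAs (-0.02). The hepatocyte, islet and neuronal, striated muscle and sensory lists are not drawn. The hepatocyte miRNA miR-122-5p, detected on no control array, had a change of 5.00, a size that depends on the floor. It was 5.81 with a floor of 1.40 and 4.00 with a floor of 5.60, against the reported floor of 2.80. The 2 tested family members (1.05 and 1.41) lie right of the points of the 7 lists drawn, and the leukocyte list has a median of -0.99.

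Markers of other cell types moved with the groups. Of 6 leukocyte miRNAs tested, none was called higher, also at an unadjusted p under 0.05 (limma), and 5 were called lower, miR-142a-5p (-1.43), miR-150-5p (-1.39), miR-223-3p (-0.83) and miR-342-3p (-0.51) among them. Their summed signal was 255 to 350 in db/db samples and 529 to 690 in control samples. All 6 were detected on at least 1 array. miR-150-5p was detected on only 1 of 4 db/db arrays and met the filter only through control. As shares of all tested miRNAs, 24.4% were called higher and 17.4% lower. The hepatocyte miRNA miR-122-5p had signals of 50.2 to 133 in db/db samples, detected in every one, and of 0 to 2.36 in control samples, where no array detected it. It met the filter only through db/db, and the size of its log2 change depends on the floor. The part of these cell types in the changes of miR-204-5p and miR-211-3p was not tested.

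Other marker sets gave fewer calls. None of the 2 endothelial, 2 smooth muscle and pericyte and 2 erythroid miRNAs tested was called in either direction, with median changes of -0.13, -0.05 and 0.40 (limma). At an unadjusted p under 0.05, both endothelial miRNAs were lower and none of the other 4 was past it. The summed erythroid signal varied more between samples than between groups, from 646 to 3564 in db/db samples and from 703 to 3058 in control samples. Among the listed miRNAs of sensory and retinal epithelium, only miR-96-5p was tested, and it was called lower (-0.39). Neither of the 2 tested islet and neuronal miRNAs was called, and miR-375-3p and miR-124-3p, which define those cells, were detected on no array. Among striated muscle miRNAs, miR-1a-3p was called higher (0.37), whereas miR-133a-3p and miR-206-3p were detected on no array.

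**Figure D5:**
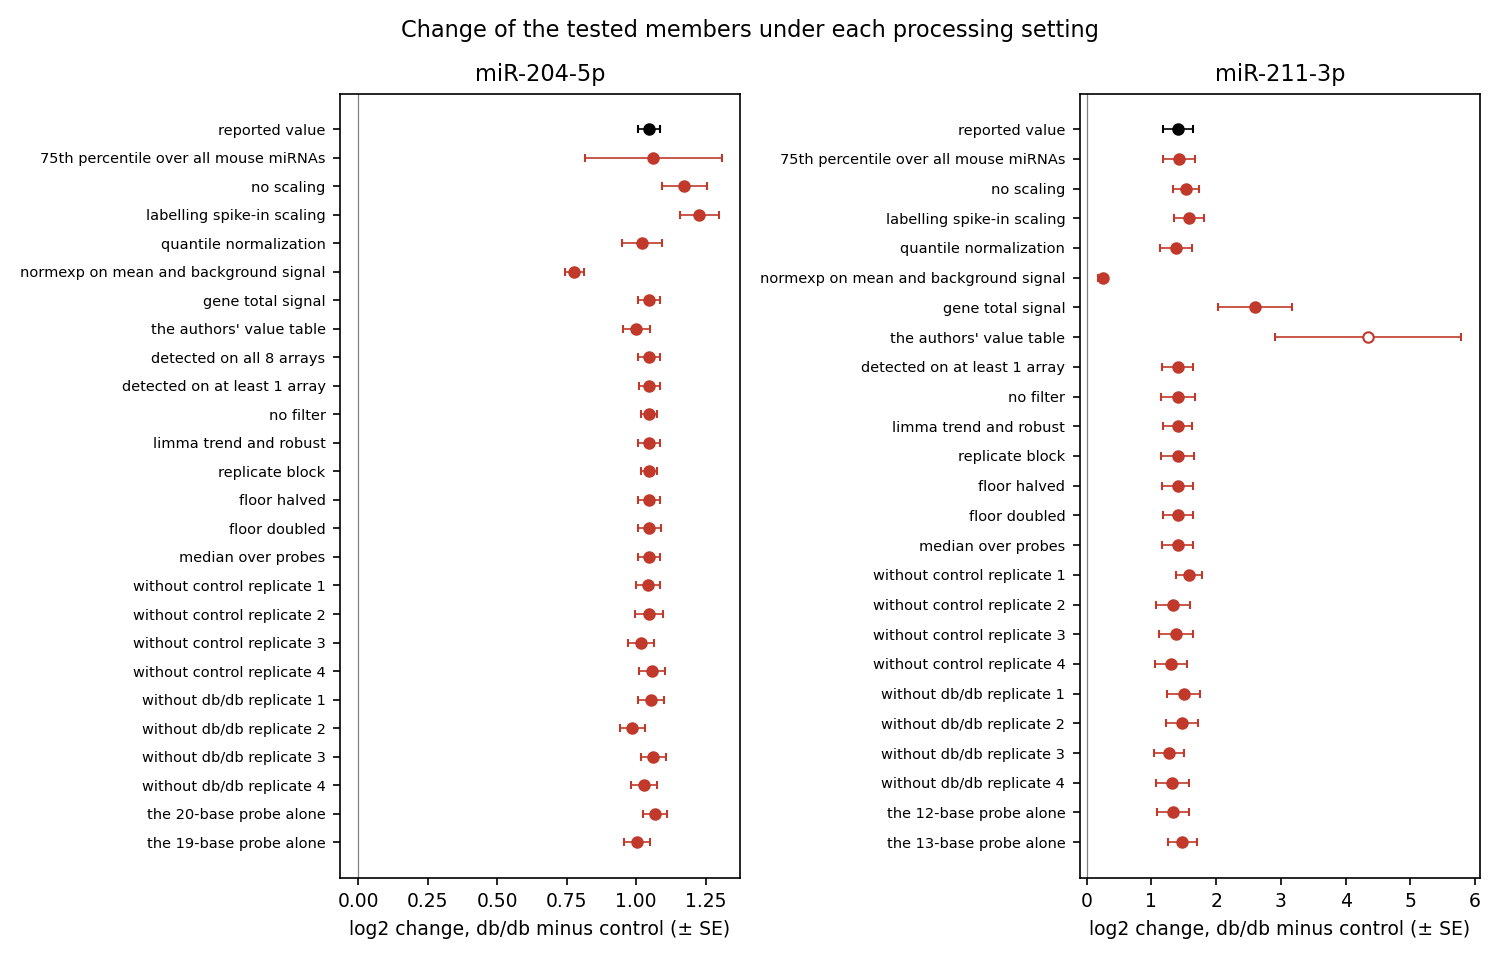
Log2 change (db/db minus control, x axis, ± SE) of miR-204-5p and miR-211-3p under the reported and each alternative setting (rows), with filled points where limma's adjusted p was under 0.05. miR-204-5p stays between 0.78 and 1.23 and is filled throughout. miR-211-3p runs from 0.25 after normexp, which adds an offset of 50, to 4.35 in the authors' value table, its 1 open point. The x axes differ.

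The median change of all tested miRNAs was -0.02 with the reported scaling, 0.10 without scaling and 0.16 with spike-in scaling. These settings apply 1 factor to each array, so a member's distance from the median is the same in all 3 by construction, 1.07 for miR-204-5p and 1.43 for miR-211-3p. After quantile normalization, which can change that distance, it was 1.08 for miR-204-5p and 1.44 for miR-211-3p. Settings that treat background or detection differently moved miR-211-3p far more, as its range of 0.25 to 4.35 shows. The low end came from normexp, whose added offset of 50 makes log2 changes of dim miRNAs smaller.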

How the data were processed

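RNA was extracted from kidney with a miRNeasy kit and 100 ng was labelled with Cy3, per the labels' protocols. The deposited spot intensity values were made by the authors, per the file headers, in Agilent Feature Extraction 12.0.3.1 with spatial detrending on and background correction off. A deposited table of values was used only as an alternative. It holds a linear ratio per miRNA and array made by the authors. Each array carries its own factor and each miRNA its own divisor, and the choice of that factor is not stated. A higher ratio means more signal. Its column medians were 0.857, 1.01, 0.994 and 0.947 in db/db replicates 1 to 4 and 1.11, 1.10, 1.10 and 0.980 in control replicates 1 to 4. An undetected miRNA holds a fill of 0.1 in the gene total signal behind that table.

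From the scanner files, processed signals of spots that were not outliers were averaged per probe and then per miRNA. Arrays were scaled to an equal 75th percentile over the 269 miRNAs that every array detected, floored at 2.80 (1.48 on the log2 scale) and tested in R 4.3.3 with limma 3.58.1 (lmFit and eBayes), 2-sided, on the 316 miRNAs for which all 4 arrays of either group had a detection call. Benjamini-Hochberg adjustment covered all 316, with calls at an adjusted p under 0.05. The procedure was tested on simulated data. The number of arrays limits the precision. Exact permutation tests used scipy 1.17.1.

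The members were chosen by name and not by their values. Earlier results of these data were known when the members, lists and tests were chosen. The miRNAs named were the 4 members, others sharing bases 2 to 7 with one, up to 4 of each list (called ones first, then by adjusted p) and the 3 nearest profiles. Some others were named for their probes. Alternatives changed the scaling, background correction, signal, filter, floor, probes, model and samples.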

Additional observations from a re-analysis of the deposited data

How the results depend on the processing

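miR-204-5p passed the test under all 25 alternatives, with changes of 0.78 to 1.23 and adjusted p of 3.51e-08 to 0.000313 (limma). The lowest change was with normexp, which adds an offset of 50 to every signal, and the highest with spike-in scaling. miR-211-3p passed under 23 of 24, missing it in the authors' value table (4.35, adjusted p = 0.0509, limma), which holds the fill for 2 undetected control arrays. Filtering on detection on all 8 arrays gave miR-211-3p no value. Apart from the fits with no filter or with detection on at least 1 array, its alternatives kept the filter it met only through db/db. Its count of passes is therefore not independent of its change. Leaving out 1 sample in turn gave 0.99 to 1.06 for miR-204-5p, 1.27 to 1.58 for miR-211-3p and 114 to 153 calls in all, against 132. With the 75th percentile over all miRNAs, 34 miRNAs were called. The SE of both tested members was 0.25 in that setting, against 0.04 for miR-204-5p and 0.23 for miR-211-3p as reported. That percentile was taken over 1881 miRNAs, of which each array detected 289 to 358. The cause of the lower count was not tested. The other settings gave 97 to 167 calls. The calls split into 77 higher and 55 lower as reported, 100 and 28 without scaling, 139 and 28 with spike-in scaling, 68 and 77 after quantile normalization and 69 and 84 without db/db replicate 2. After normexp the split was 61 and 64, and miR-335-5p had a change of -0.0071. The untested change of miR-211-5p ran from -0.39 (20-base probe alone) to 1.77 (the authors' value table). With the replicate number as a block, 144 miRNAs were called, miR-204-5p with an adjusted p of 0.000313 and miR-211-3p with 0.0156 (limma). Deviations of samples with the same number correlated at -0.43, 0.41, -0.05 and -0.07 for replicates 1 to 4. The same-numbered control was the nearest one only for db/db replicate 2. The number is also the slide column, and the labels do not say that it marks a shared batch. Slide and scan could not be used as a block, since there was 1 of each. Signal close to background limits miR-211-3p and miR-211-5p, and miR-204-3p has no level.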

Other observations

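The probes of miR-211-3p are short and hold a run of C, so miRNAs with such probes were counted. The counts include miR-211-3p itself and were chosen after the values had been seen. Of 22 miRNAs on the array with a probe holding 5 or more C in a row, 8 were tested. Of these, 4 were called higher and none lower (limma), with a median change of 0.36. They were miR-211-3p (1.41), miR-3960 (1.50), miR-5126 (0.77) and miR-8110 (0.71). The 4 that did not pass were miR-1897-5p (-0.38), miR-6995-5p (-0.26), miR-7050-5p (-0.16) and miR-652-5p (0.004). The count and the median thus contain the member that prompted them. Across all tested miRNAs, 24.4% were called higher. Of 160 miRNAs whose longest probe has 13 bases or fewer, 29 were tested, 9 were called higher and 6 lower, with a median change of -0.07. The part of probe sequence in the change of miR-211-3p was not tested.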
